A study of Mus musculus with 6 samples.

Results

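Splicing factor genes besides Srsf2 that are recurrently mutated in myeloid neoplasms were followed in mouse blood progenitors with and without a mutant Srsf2 allele. The 8 genes, Sf3b1, U2af1, U2af2, Zrsr2, Luc7l2, Prpf8, Ddx41 and Sf1, were taken by symbol from the 26027 genes of the deposited count table. All 8 were found once and passed the filter on low counts, which kept 17144 genes. The cells, Lin-/cKit+/eYFP+ by sort, are called immature multipotent progenitors in the labels and were taken from whole bone marrow of C57BL/6 mice given tamoxifen. Of the 6 libraries, 3 were Srsf2 +/+ (wild type here) and 3 carried 1 mutant allele, Srsf2 P95H/+. Both genotypes bore hScl-CreERT, a Cre recombinase that tamoxifen switches on, and R26eYFP, whose eYFP signal shows that Cre has acted in a cell. By the labels, the females were wild-type replicate 1 (aged 54 weeks, the others 32), P95H/+ replicate 1 and P95H/+ replicate 2, while both replicates 3 and wild-type replicate 2 were males. No label states that a library is 1 mouse, so p-values may measure a spread that is partly technical.

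These proteins act in turn on an intron. U1 snRNP marks the 5′ splice site, with Luc7-like proteins among its partners. Sf1 binds the branch point, U2af2 the pyrimidine tract and U2af1 the terminal AG, after which U2 snRNP, with Sf3b1 as its branch point clamp, takes the place of Sf1. Zrsr2 does the work of U2af1 at the rare introns of the minor spliceosome, Prpf8 forms the scaffold of the catalytic centre, and Ddx41 is a DEAD-box helicase linked to the catalytic spliceosome and to sensing of nucleic acids. In myeloid disease Sf3b1, U2af1 and Srsf2 carry hotspot substitutions, whereas Zrsr2 and Luc7l2 mostly lose function. Counts per gene show transcript level only, and they show neither an allele nor a splice choice.

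Library totals ran from 10747941 to 23010510 counts. Both replicates 3 were the smallest, at 16842751 (wild type) and 10747941 (P95H/+) against 21104066 to 23010510 in the others. They also had the fewest genes with a count, 23308 and 22074 against 23688 to 24315. The part of depth in the results was not tested. Levels are given as CPM, the count scaled to a common library total. Counts of the 8 genes ran from 255 to 20580 per library, so that exact binomial 95% intervals of their CPM had half-widths of 1.37% to 12.5%, which cover counting error only. Srsf2 stood at 324, 331 and 343 CPM in wild-type replicates 1, 2 and 3 and at 342, 336 and 315 CPM in those of P95H/+. Of 9 progenitor markers, all 9 exceeded 1 CPM in every library. Kit, the receptor of the sort, was at 476 to 548 CPM, while Cd3e, a T cell marker, reached at most 0.348 CPM. Other lineages were not absent: Klrb1c, an NK cell gene, stood at 1.68 to 6.52 CPM, and summed CPM over the marker lists were 3.32 to 14.2 for T and NK cells, 24.2 to 70.2 for B cells and 215 to 810 for mature neutrophils. The replicate 3 libraries differed from the rest by base composition as well as by depth. Median log2 deviations there were -0.89 (wild type) and -1.17 (P95H/+) for genes whose transcripts hold up to 40% GC, and 0.46 and 0.74 for those above 55%. Summed CPM of 5 late erythroid markers were 502 and 922 in the replicate 3 libraries against 217 to 484 in the others, and of 9 progenitor markers 8030 to 8870 against 6680 to 7600. Mpo carried the latter gap, at 6367 and 5338 CPM against 4013 to 5216. The other 8 markers summed to 2498 and 2693 CPM against 2378 to 2677. Among those 8, Cebpa (298.5 and 241.8 CPM against 150.6 to 171.5) and Spi1 (161.4 and 251.3 against 142.9 to 146.5) were higher. Kit was slightly higher, at 532.2 and 548.4 CPM against 475.7 to 531.3. Myb was lower, at 620 and 679 CPM against 774 to 830. Cd34, Flt3, Gata2 and Runx1 overlapped with the other libraries. The part of these markers in the results was not tested. In a mixture of cells, fewer cells of a type and less RNA per cell cannot be told apart. Results are therefore given with all 6 libraries and without both replicates 3.

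The stretches printed here show how differently the coding sequences are composed. Over 12641 protein-coding genes, the level in replicate 3 relative to replicates 1 and 2 rose with coding GC content. Pearson's r was 0.6 in wild type and 0.67 in P95H/+. Coding GC content did not order the members: U2af1 (53.5%) and Zrsr2 (52.6%) were low in replicate 3, and Prpf8 (51.0%) was high. Each is the first run of 60 coding bases within 1 exon whose GC content lies nearest to that of the whole coding sequence. They come from the principal GENCODE M21 transcripts, 5′ to 3′ on the coding strand, and capitals mark G and C. The coding sequences of Sf3b1 and Luc7l2 hold 44.3% and 47.6% GC, and those of Ddx41 and Sf1 hold 56.2% and 57.9%. The 4 stretches are exonic and lie on mm10 at chr1:55019341-55019400 on the minus strand (Sf3b1), chr6:38570524-38570583 on the plus strand (Luc7l2), chr13:55535887-55535946 on the minus strand (Ddx41) and chr19:6368376-6368435 on the plus strand (Sf1).
Sf3b1: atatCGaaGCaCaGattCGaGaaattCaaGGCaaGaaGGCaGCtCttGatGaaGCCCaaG
Luc7l2: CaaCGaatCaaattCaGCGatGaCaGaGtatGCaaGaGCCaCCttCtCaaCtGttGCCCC
Ddx41: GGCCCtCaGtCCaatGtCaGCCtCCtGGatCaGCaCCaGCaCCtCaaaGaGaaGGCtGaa
Sf1: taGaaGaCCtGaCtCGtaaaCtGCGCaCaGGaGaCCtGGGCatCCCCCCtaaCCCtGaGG

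The branch point and 3′ splice site genes of the major spliceosome were well expressed in both genotypes, and 0 of these 4 passed the test of a difference between them. Sf3b1 (ENSMUSG00000025982, mm10 chromosome 1, 54985169 to 55027481, minus strand), the U2 snRNP subunit that holds the branch point, stood at 743, 752 and 361 CPM in wild-type replicates 1, 2 and 3. It stood at 709, 731 and 417 CPM in those of P95H/+. The low value in each genotype was replicate 3, and the groups overlapped. Means were 619 ± 223 CPM in wild type and 619 ± 175 CPM in P95H/+ (SD, n = 3 each). P95H/+ against wild type gave a log2 fold change of 0.06 (SE 0.35, adjusted p 1, two-sided quasi-likelihood test of edgeR), which turned to -6.1e-05 when libraries were scaled by their totals alone.

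Sf1 (ENSMUSG00000024949, chromosome 19, 6363690 to 6378030, plus strand), the branch point binding protein, was at 540.0, 536 and 503 CPM in wild type and at 557, 548 and 738 CPM in P95H/+. It was the single member whose genotypes did not overlap in the 6 libraries, a pattern shown by 7.84% of all tested genes. Its log2 fold change of 0.30 (SE 0.21, adjusted p 1, edgeR) had a 95% interval of -0.18 to 0.79. P95H/+ replicate 3 alone stood far from the rest, and without both replicates 3 the value was 0.07 (SE 0.08). An antisense gene, Gm14966, covers 1.13% of its exonic bases.

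U2af2 (ENSMUSG00000030435, chromosome 7, 5062143 to 5079938, plus strand), which binds the pyrimidine tract, stood at 264, 284 and 317 CPM in wild type and at 278, 278 and 362 CPM in P95H/+. Here replicate 3 was the highest library of each genotype. Its partner U2af1 (ENSMUSG00000061613, chromosome 17, 31647081 to 31658892, minus strand), which reads the terminal AG, stood at 104, 116 and 90.1 CPM in wild type and at 125, 109 and 63.1 CPM in P95H/+. Replicate 3 was the lowest library of each genotype for U2af1, so that in CPM the subunits of this heterodimer went opposite ways in the same libraries. After the correction for transcript GC content described below, replicate 3 lay below replicates 1 and 2 for both. The log2 values were -0.11 and -0.08 for U2af2 and -0.54 and -1.22 for U2af1 (wild type and P95H/+). The log2 fold changes between genotypes were 0.16 (SE 0.21) for U2af2 and 0.00 (0.0015, SE 0.28) for U2af1, each with an adjusted p of 1 in edgeR. The sign for U2af1 turned with total-count scaling (-0.06) and upper quartile scaling (-0.05). U2af1 has a processed pseudogene, Gm10232, that matches 720 bases at 99.7% identity and reached 2.31 CPM at most, so that reads may be split between them. Gm5846, a like copy of U2af2 at 96.1% identity, reached 0.9 CPM, and Gm7061, at 90.9%, reached 0.13 CPM. Further copies, AC102268.2 and Gm18959 of U2af1 and Gm8784 of U2af2, were not among the counted genes, so their level is not known.

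The member of the minor spliceosome and the partner of U1 snRNP varied most relative to their mean, with coefficients of variation of 37.6% (Zrsr2) and 43.5% (Luc7l2) over the 6 libraries. Zrsr2 (ENSMUSG00000031370, chromosome X, 163935443 to 163958661, minus strand), which recognises the 3′ splice site of minor introns, stood at 67.6, 59.5 and 27.6 CPM in wild type and at 57.4, 55.1 and 23.7 CPM in P95H/+. Luc7l2 (ENSMUSG00000029823, chromosome 6, 38551334 to 38609470, plus strand), a Luc7-like protein of U1 snRNP, stood at 492, 458 and 208 CPM in wild type and at 441, 453 and 118 CPM in P95H/+. In both genes the replicate 3 libraries were below the other 4, and the genotypes overlapped. The log2 fold changes were -0.12 (SE 0.43) for Zrsr2 and -0.14 (SE 0.53) for Luc7l2, each with an adjusted p of 1 in edgeR. Their 95% intervals ran from -1.13 to 0.89 and from -1.38 to 1.10, so that a 2-fold change in either direction lay inside that of Luc7l2. A processed pseudogene of Luc7l2, Gm11889, matches 1113 bases at 94.2% identity and reached 0.575 CPM at most. Gm26699, an annotated noncoding gene on the opposite strand, covers 18.9% of the exonic bases of Luc7l2. Whether counting used strand is not given in the sources used here, and without strand the reads of such a pair cannot be told apart.

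Prpf8 and Ddx41, the members linked to the catalytic spliceosome, were higher in the replicate 3 libraries. Prpf8 (ENSMUSG00000020850, chromosome 11, 75486816 to 75509449, plus strand), the U5 snRNP scaffold, stood at 810.5, 868 and 1164 CPM in wild type and at 928, 910.0 and 1322 CPM in P95H/+. Ddx41 (ENSMUSG00000021494, chromosome 13, 55530410 to 55536658, minus strand), the helicase that is also a germline predisposition gene, stood at 74.1, 74.2 and 95.2 CPM in wild type and at 74.7, 75.3 and 97.3 CPM in P95H/+. Replicates 1 and 2 of the genotypes lay close together for Ddx41, with a coefficient of variation of 0.739% over those 4 libraries, the smallest of the 8 members. Counting error alone gave 95% half-widths of 4.78% to 4.99% there, so this closeness is finer than the counts can resolve. The log2 fold changes were 0.24 (SE 0.25) for Prpf8 and 0.10 (SE 0.22) for Ddx41, each with an adjusted p of 1 in edgeR. Gm46416, antisense to Ddx41, covers 17.4% of its exonic bases.

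**Figure D1:**
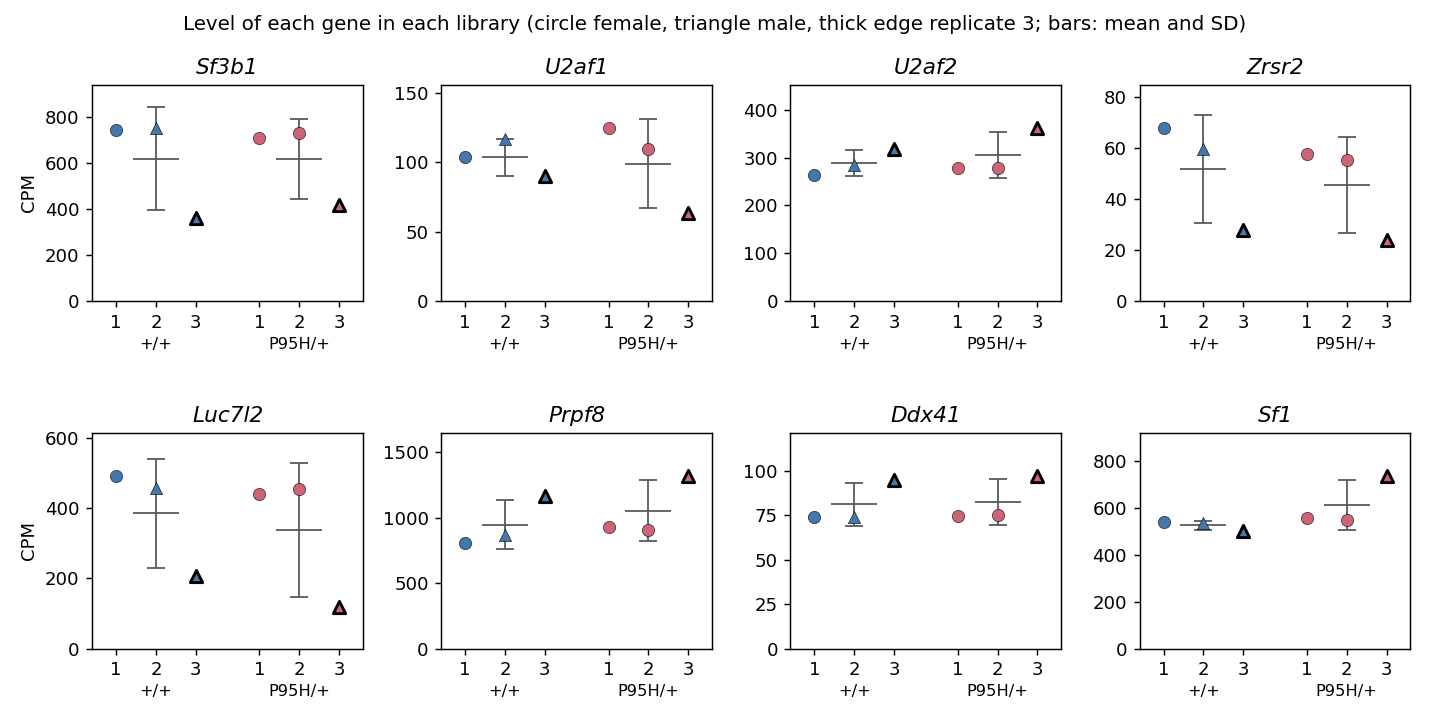
CPM (vertical axes, from 0) of the 8 genes in each library, with replicate numbers on the horizontal axis, wild type in blue and P95H/+ in red, and group mean and SD as bars. The thick-edged replicate 3 points lie below the others for Sf3b1, U2af1, Zrsr2 and Luc7l2 and above them for U2af2, Prpf8 and Ddx41 in both genotypes.

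Across the 8 genes, 0 passed an adjusted p of 0.05 in the 6-library fit, where 0% of all 17144 genes passed. At an unadjusted p under 0.05 there were 0 members, against 2.11% of all genes. With DESeq2, which called 8 genes in all, 0 members passed. The median log2 fold change of the members was 0.08, with 6 above 0 and 2 below, beside a median of 0.02 over all tested genes. With the replicate number as a block, 1 gene was called in all and 0 members. Signs depended on single libraries. Without P95H/+ replicate 3 the log2 fold change turned to 0.17 for Zrsr2, 0.26 for Luc7l2, -0.06 for Ddx41 and -0.00029 for U2af2. Zrsr2 also turned without wild-type replicate 1 (0.11) or 2 (0.01), as did Luc7l2 (0.07 and 0.02). Sf3b1 turned to -0.22 without wild-type replicate 3, -0.06 without P95H/+ replicate 1 and -0.05 without P95H/+ replicate 2. Without any 1 library, Prpf8 and Sf1 stayed above 0, at 0.01 to 0.40 and 0.12 to 0.40. U2af1 ranged from -0.21 to 0.23 and turned without 4 of the 6 libraries. With sex and age in the model the values were -1.39 for Luc7l2, -0.77 for Zrsr2, 0.62 for Sf1 and 0.50 for Prpf8. Wild-type replicate 1 is the only older library, and the remaining females are both P95H/+. The genotype difference of that fit therefore rests on P95H/+ replicate 3 against wild-type replicates 2 and 3. These values cannot be read as a genotype difference freed of sex and age.

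Leaving out both replicates 3, 2 libraries against 2, left 0 members past the test, where 0.829% of 17371 genes passed. SE lay between 0.08 and 0.10, against 0.21 to 0.53 with all 6, and 5 members were above 0 and 3 below. The replicates 3 were left out after their values were seen, so the SE and intervals may understate the spread between libraries. The 95% intervals were -0.22 to 0.17 for Sf3b1, -0.12 to 0.35 for U2af1, -0.13 to 0.23 for U2af2 and -0.11 to 0.25 for Sf1. They were -0.36 to 0.07 for Zrsr2, -0.23 to 0.12 for Luc7l2, -0.05 to 0.37 for Prpf8 and -0.13 to 0.23 for Ddx41. The smallest unadjusted p was 0.115, for Prpf8 at 0.16 (SE 0.09, adjusted p 0.445, edgeR), and 0 members lay under 0.05 against 15.6% of all genes. The groups of 2 did not overlap for 6 of the 8 members, all but U2af1 and U2af2, against 48.1% of all genes. In this comparison wild-type replicate 1 is the only older mouse and wild-type replicate 2 the only male, so that age and sex cannot be told apart from genotype.

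**Figure D2:**
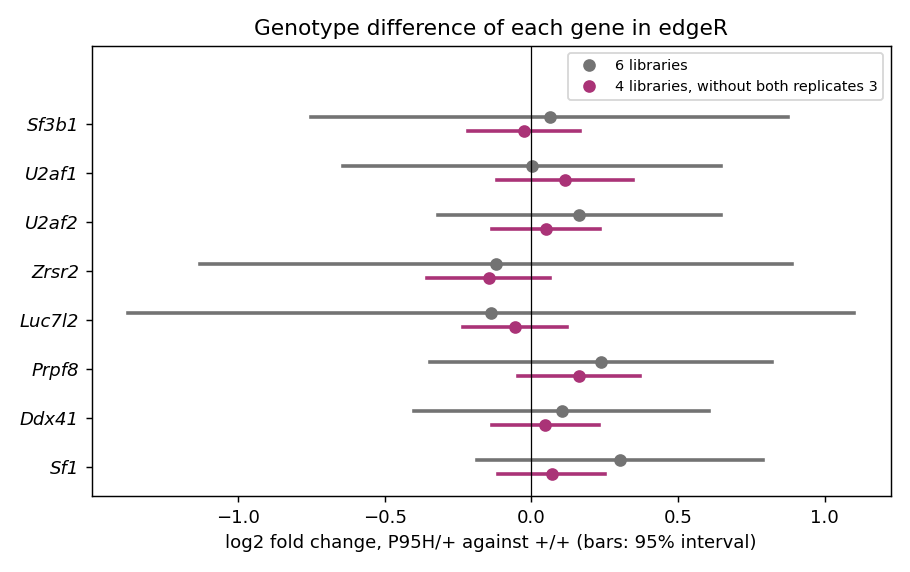
Log2 fold change of P95H/+ against wild type (horizontal axis) with its 95% interval for the 8 genes, in grey with all 6 libraries and in purple without both replicates 3. Every interval crosses 0, and the purple intervals stay between -0.36 and 0.37. The replicates 3 were left out after their values were seen, so the purple intervals may be too narrow.

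The members fell into groups by their level in replicate 3, in wild type and P95H/+ alike. Sf3b1, U2af1, Zrsr2 and Luc7l2 were below every other library in both replicates 3, as were 30.5% of all tested genes. U2af2, Prpf8 and Ddx41 were above, as were 26% of all tested genes. The samples were set apart here after their values were seen, so these are descriptions with no test. Shifts are on a log2 CPM scale with TMM, the library scaling of the edgeR fit, so they differ somewhat from those of the printed CPM. Replicate 3 minus the mean of replicates 1 and 2 was -1.23 in wild type and -1.85 in P95H/+ for Luc7l2, and -1.23 and -1.17 for Zrsr2. These values lay among the lowest 11.2% of all tested genes. For Sf3b1 they were -1.09 and -0.72, and for U2af1 -0.32 and -0.82. The positive shifts were 0.44 and 0.59 for Prpf8, 0.33 and 0.44 for Ddx41 and 0.18 and 0.45 for U2af2. Sf1 went both ways, at -0.13 in wild type and 0.49 in P95H/+.

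The 4 members that were low in both replicates 3 had the 3′ UTRs poorest in GC. In the principal transcripts, the 3′ UTRs of Luc7l2, Sf3b1, U2af1 and Zrsr2 hold 35.6%, 36.7%, 36.9% and 41.1% GC, and those of Prpf8, Sf1, Ddx41 and U2af2 hold 43.7%, 49.0%, 54.6% and 55.6%. That of U2af1 is only 130 bases long. Srsf2 does not follow this order: its 3′ UTR holds 35.7% GC and its shifts were 0.03 and -0.04. GC content of the whole transcript did not separate them, since U2af1, at 54.4%, and Zrsr2, at 50.3%, were low in replicate 3 while Prpf8, at 51.5%, was high. Over 12641 protein-coding genes the shift rose with GC content of the 3′ UTR, with Pearson's r of 0.57 in wild type and 0.61 in P95H/+, and with that of the whole transcript, with r of 0.63 and 0.71. Genes are not independent replicates, and GC contents of the parts of a transcript go together. Genes with a 3′ UTR GC content of 35% to 40% had a median shift of -0.53 and -0.63, so that Luc7l2 and Sf3b1 lay further down than this class in both genotypes, and U2af1 in P95H/+ only. Zrsr2 and Prpf8 share the class of 40% to 45%, with medians of -0.18 and -0.2. They lay on opposite sides of it, Zrsr2 at -1.23 and -1.17 and Prpf8 at 0.44 and 0.59. After a correction for transcript GC content, U2af1 stood at -0.54 and -1.22, further from 0 than before, and Sf3b1 at -0.42 and 0.06. The shift of Luc7l2 was still -0.88 and -1.45 and that of Zrsr2 -1.19 and -1.16. For U2af2 and Ddx41 the corrected shifts lay between -0.12 and 0.02. For Prpf8 they were 0.40 and 0.49, and for Sf1 -0.38 and 0.02.

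**Figure D3:**
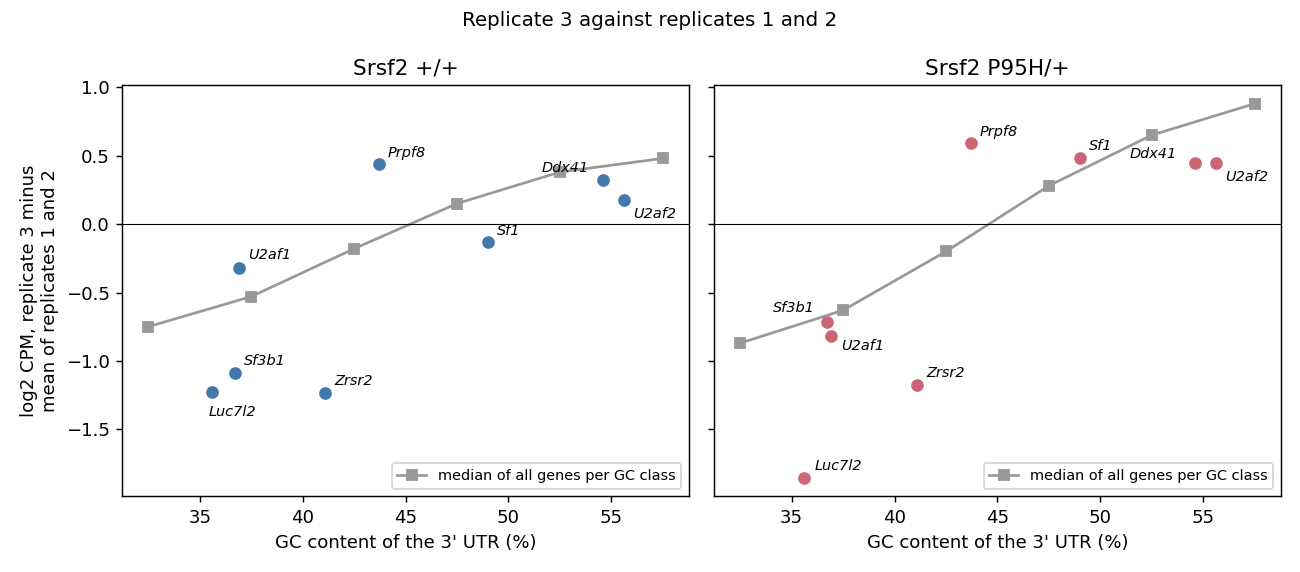
Log2 CPM of replicate 3 minus the mean of replicates 1 and 2 (vertical axis) against GC content of the 3′ UTR (horizontal axis) for the 8 genes, wild type on the left and P95H/+ on the right. The log2 CPM are TMM-scaled. Grey squares join the medians of all protein-coding genes per GC class, with the outer classes open-ended, and rise from -0.75 to 0.48 in wild type and from -0.87 to 0.88 in P95H/+.

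Levels between genes were compared per kilobase of annotated exon in the 4 libraries other than replicate 3. Prpf8 led at 118 ± 7.02 CPM per kb (SD, n = 4), followed by Sf1 at 87.8 ± 1.5. U2af2 at 67.1 ± 2.12 and Sf3b1 at 64.5 ± 1.66 were neighbours with overlapping libraries, as were U2af1 at 43.7 ± 3.44 and Luc7l2 at 38.2 ± 1.82. Ddx41 stood at 27.8 ± 0.205 and Zrsr2 lowest at 8.32 ± 0.759 CPM per kb. The upper ranks depended on the length used. Per kilobase of the principal transcript, Luc7l2 led at 171 ± 8.12, while U2af2, Sf1, Sf3b1, Prpf8 and U2af1 lay between 109 and 132. Ddx41 at 33.8 ± 0.250 and Zrsr2 at 21.9 ± 2.00 stayed below the other 6 by either length. Per kilobase of exon, Zrsr2 was near the middle of all tested genes with a known length, at percentile 56.8, and the other 7 lay between percentiles 89.0 and 98.3, over the 6 libraries.

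**Figure D4:**
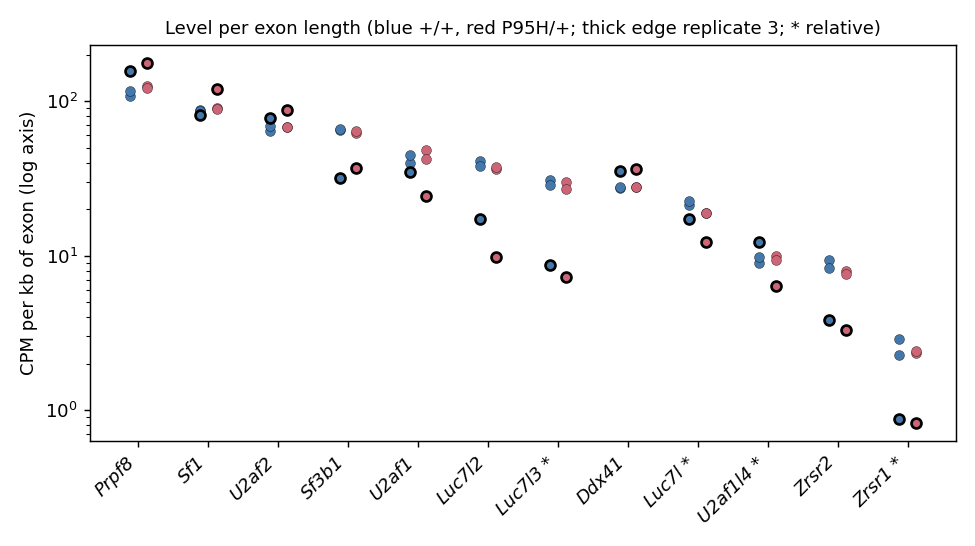
CPM per kilobase of annotated exon (logarithmic vertical axis) of the 8 genes and 4 close relatives (asterisks) in each library, ordered by their mean in the 4 libraries other than replicate 3. Prpf8 is highest and Zrsr2 lowest among the 8, and thick-edged points are replicate 3.

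Close relatives had lower means per kilobase of exon than the members they resemble in the 4 libraries other than replicate 3, at 2.49 for Zrsr1, 9.53 for U2af1l4, 20.4 for Luc7l and 29.1 CPM per kb for Luc7l3. In the replicate 3 libraries Luc7l, at 17.3 and 12.3, was level with or above Luc7l2, at 17.2 and 9.77 CPM per kb of exon. Per kilobase of the principal transcript this order turned, with Luc7l at 26.4 and 18.8 and Luc7l2 at 76.8 and 43.7 CPM per kb. Zrsr1, a copy of Zrsr2 made by retrotransposition that matches 46.8% of the Zrsr2 transcript at 75% identity or more, stood at 13.0, 10.2 and 3.92 CPM in wild type and at 10.6, 10.9 and 3.72 CPM in P95H/+. It was low in replicate 3 as Zrsr2 was, and Commd1 on the opposite strand covers 9.17% of its exonic bases. U2af1l4, a paralog of U2af1, stood between 10.6 and 20.2 CPM, Luc7l between 92.7 and 170.1 CPM and Luc7l3 between 52.6 and 224 CPM. For Luc7l, without both replicates 3, the log2 fold change was -0.20 (SE 0.08, adjusted p 0.293, edgeR), from 161 and 170.1 CPM in wild type to 142 and 141 CPM in P95H/+. Of the 4 relatives, 0 passed in either fit.

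The proteins that work with the members were followed as lists, which held 66 genes besides the members, and 0 of them passed edgeR's test in either fit. With all 6 libraries 0 of the 66 had an unadjusted p under 0.05. Without both replicates 3 there were 7, or 10.6%, below the 15.6% of all genes in that fit. In the 6-library fit 48 of the 66 were above 0 in P95H/+, or 72.7%, beside 53.1% of all tested genes, and their median log2 fold change was 0.12. Without both replicates 3 these were 45 genes, 68.2% beside 49.6%, and a median of 0.06. These counts describe the lists and were not tested.

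Among 22 partners at the branch point and 3′ splice site, 19 were above 0 with a median of 0.16. Sf3b5 is a small subunit of the same complex as Sf3b1. It stood at 49.1, 53.7 and 48.8 CPM in wild type and at 61.0, 57.3 and 62.4 CPM in P95H/+. It was named for its low p within the list, and its groups did not overlap, as in 7.84% of all tested genes. Its log2 fold change was 0.33 (SE 0.18, adjusted p 1, edgeR), and 0.23 (SE 0.10, adjusted p 0.291) without both replicates 3. Sf3a2, of the U2 snRNP subcomplex SF3a, rested on 1 library, with 271 CPM in P95H/+ replicate 3 against 92.4 to 127 CPM in the other 5. Snrpb2, a U2 snRNP protein, was at 15.7 CPM in both replicates 3 against 67.3 to 86.5 CPM elsewhere.

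Of 14 partners of Prpf8 in U5 snRNP and the tri-snRNP, 11 were above 0 with a median of 0.16. Txnl4a, a small U5 snRNP protein, stood at 23.6, 26.1 and 23.9 CPM in wild type and at 34.9, 33.1 and 24.0 CPM in P95H/+. Without both replicates 3 its log2 fold change was 0.48 (SE 0.11, adjusted p 0.0827, edgeR), the smallest adjusted p among the listed genes. With all 6 it was 0.39 (SE 0.21, adjusted p 1). Prpf31, which tethers the tri-snRNP, stood at 89.0, 93.7 and 61.9 CPM in wild type and at 112, 105 and 76.3 CPM in P95H/+, with 0.33 (SE 0.25) in 6 libraries and 0.28 (SE 0.09, adjusted p 0.179) in 4.

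The U1 snRNP and 5′ splice site list had 6 of 10 genes above 0 and a median of 0.01. Tia1, which helps U1 snRNP at weak 5′ splice sites, stood at 117, 105 and 69.5 CPM in wild type and at 80.9, 90.9 and 50.9 CPM in P95H/+. Its log2 fold change was -0.33 (SE 0.29) in 6 libraries and -0.34 (SE 0.09, adjusted p 0.113, edgeR) in 4. Snrpa, a U1 snRNP protein, had 0.38 (SE 0.23) with all 6. The 12 minor spliceosome genes besides Zrsr2 split evenly, 6 above and 6 below 0 with a median of 0.00 (0.002). Snrnp25, of the U11/U12 particle, had -0.31 (SE 0.22), and Zmat5 -0.11 (SE 0.23). Without both replicates 3, Pdcd7, of the same particle, had -0.13 (SE 0.10, adjusted p 0.596, edgeR). Of the genes grouped with Ddx41, 7 matched a row, 6 of them above 0 with a median of 0.15. The intron-binding helicase Aqr had 0.19 (SE 0.19), and Tmem173, the STING adaptor of nucleic acid sensing, 0.13 (SE 0.18). Prpf19, a ubiquitin ligase of the catalytic spliceosome, had 0.12 (SE 0.09, adjusted p 0.598, edgeR) without both replicates 3.

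Sex was compared in a model with genotype, since Zrsr2 lies on the X chromosome. Zrsr2 was at 67.6, 57.4 and 55.1 CPM in the 3 female libraries and at 59.5, 27.6 and 23.7 CPM in the 3 male ones, with a log2 difference of 0.89 (SE 0.33, adjusted p 0.219, edgeR). The low male values were the replicate 3 libraries. Wild-type replicate 2, the only other male, lay within the female range. Luc7l2, on chromosome 6, had a difference of 1.19 (SE 0.42, adjusted p 0.219, edgeR). Without P95H/+ replicate 3 these values were 0.61 for Zrsr2 and 0.54 for Luc7l2, and over the single left-out libraries they ran from 0.61 to 1.24 and from 0.54 to 1.86. Of the members 0 passed, where 0.035% of all genes passed, and 3, Zrsr2, Luc7l2 and Prpf8, had an unadjusted p under 0.05, against 22.1% of all genes. The sexes did not overlap for U2af2 alone among the members, against 21.4% of all genes. With the replicate number as a block, where the sexes differ only within number 2, the difference of Zrsr2 was 0.01 (0.0072, SE 0.42). Without wild-type replicate 2, when both males are replicate 3, sex and that split cannot be told apart: 6111 of 17687 genes were called, or 34.6%, among them Zrsr2 at 1.24 (adjusted p 0.00317), Luc7l2 at 1.6 (0.00338), Sf3b1 at 0.87 (0.00666), Prpf8 at -0.55 (0.0183) and Ddx41 at -0.40 (0.0395).

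Correlation of log2 CPM over the 6 libraries followed the same split. The groups were drawn from these same libraries, so the correlations give no separate support for them. Among Sf3b1, U2af1, Zrsr2 and Luc7l2, and among the other 4, Pearson's r lay between 0.63 and 0.98 in 12 pairs. Between these groups it lay between -0.99 and -0.16 in 16 pairs. The value of -0.16 was that of Sf1 with Sf3b1, and Sf1 had gone both ways in replicate 3. For each member the gene with the most similar pattern was taken from 9188 genes of at least 10 CPM. These were Nusap1 for Sf3b1 (r 0.999), Exosc8 for U2af1 (0.999), Gapdh for U2af2 (0.999) and Phtf2 for Zrsr2 (0.9998). They were Fancl for Luc7l2 (0.9998), Stra13 for Prpf8 (0.999), Tnpo2 for Ddx41 (0.9995) and Spen for Sf1 (0.997). All share the 2 replicate 3 libraries, and so many candidates over 6 libraries yield high values, so that these are descriptions only.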

How the data were processed

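Total RNA of the sorted cells was depleted of ribosomal RNA and sequenced as paired 150-base reads from a stranded kit, per the labels' protocols. The tools named, per the submitters' processing notes, are STAR 2.5.3a, Trim Galore, cutadapt and Picard 1.96, besides featureCounts (Subread 1.5.1), limma and edgeR, and the build is mm10. Roles and settings are not given in the sources used here. The deposited table of raw counts was used for all results. The authors' deposited CPM tables were checked against it and agreed within 5e-04 with each count over its library total, or over the total of the 15466 genes the authors kept. 

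The genotype test was that of edgeR 4.0.16, run in R 4.3.3 (TMM, filterByExpr on genotype, robust quasi-likelihood fit, two-sided F test, Benjamini-Hochberg over all tested genes, threshold 0.05) and sex with genotype in the model. SE follows from the F statistic. Log2 CPM, and the deviations, shifts and correlations taken from them, use TMM scaling and a prior count of 2. Printed CPM are scaled by library total only. Alternatives covered scaling, filters, DESeq2 1.42.0, voom of limma 3.58.1 (plain or weighted by library quality), sex, sex and age, the replicate block, a GC correction (an offset from a natural spline on transcript GC, 4 df, fitted per library), and leaving out libraries. Deviations from group means correlated above 0.1 for each replicate number (0.372, 0.348, 0.613), which the shift shared by replicates 3 favours. Crossed numbers 1 and 2 gave 0.463 and 0.386. Gene models, lengths and sequences are from GENCODE M21 for mm10, with lengths per union of exons. The 8 genes and the lists were chosen with earlier results of these data known. Named genes are all 8 members, per list the genes called (with none called, the 2 of lowest p), and the most similar gene per member.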

Additional observations from a re-analysis of the deposited data

How the results depend on the processing

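Prpf8, Sf1, U2af2, Zrsr2, Luc7l2 and Ddx41 kept the sign of their genotype difference in all 14 settings other than single left-out libraries, and 0 members were called between genotypes in all 20. Their size moved: sex and age in the model gave -1.39 for Luc7l2, -0.77 for Zrsr2, 0.62 for Sf1, 0.50 for Prpf8, 0.38 for U2af2 and 0.32 for Ddx41. In that fit the genotype difference rests on P95H/+ replicate 3 against wild-type replicates 2 and 3. Sf3b1 turned to -6.1e-05 without a scaling factor, -0.15 with sex in the model, -0.31 with sex and age, and -0.025 without both replicates 3. U2af1 turned to -0.065 without a scaling factor, -0.046 with upper quartile scaling, -0.0031 without a filter, -0.010 with the 1 CPM filter, -0.030 with voom, -0.038 with the replicate block, -0.048 with the block and GC correction, -0.18 with sex and -0.60 with sex and age. Leaving out 1 library gave -0.22 to 0.27 for Sf3b1, -0.21 to 0.23 for U2af1, -0.00029 to 0.25 for U2af2, -0.43 to 0.17 for Zrsr2, -0.44 to 0.26 for Luc7l2, 0.01 to 0.40 for Prpf8, -0.058 to 0.22 for Ddx41 and 0.12 to 0.40 for Sf1. Genes called between genotypes numbered 0 in the reported fit, 8 with DESeq2, 97 with weighted voom, 1 with the replicate block, 1 with the block and GC correction, 144 without both replicates 3, and 0 to 1 when 1 library was left out. The members and listed genes called stayed at 0 in all 20 settings. For sex, 6 genes were called, 184 with DESeq2, 19 with the replicate block, and 2 to 6111 when 1 library was left out. With GC correction the sex difference turned to 0.031 for U2af2, 0.062 for Ddx41 and 0.085 for Sf1, and with the replicate block to -0.22 for Sf3b1 and -0.081 for U2af1. Leaving out 1 library gave -0.0090 to 0.83 for U2af1 and -0.48 to 0.040 for Sf1. Without wild-type replicate 2 both remaining males are replicate 3. The cause was not tested. Depth limits Zrsr2 most, with 255 counts in P95H/+ replicate 3.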
